A study of Arabidopsis thaliana with 10 samples.

Results

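Transposable elements that were near silent in wild-type seedlings but gave reads in fve-8 seedlings were chosen by raw RNA counts. An element belonged to the set when its counts summed to at most 2 over the 3 WT libraries and to at least 1 over the 3 fve-8 libraries. Of 31189 elements among the 73194 features of the RNA table, 1591 met this rule. The same rule with the genotypes exchanged, at most 2 counts over fve-8 and at least 1 over WT, gave a mirror set of 898 elements. It stands beside the set as a rough guide to sparse counts. The mirror set is not a pure measure of them, since nuclear depth was lower in WT and some of its elements may be lower in fve-8. The 2 sets shared 335 elements with 1 or 2 counts in each genotype. Because these counts chose both sets, the difference between the genotypes at these elements is a description and carries no test.

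Whole Arabidopsis thaliana seedlings of ecotype Ler were grown on MS medium without treatment and taken at 5 days. The mutant group, fve-8 (-/-), is homozygous for an allele of FVE, and the group called WT is E5-4, a genotype of which the labels say nothing more. Each genotype had 3 RNA libraries, made with a stranded total RNA kit. The repeats carry numbers, and no label names separate cultures. Any p-value here therefore measures the spread between these libraries, which may be technical.

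Transposable elements are DNA sequences that can copy or move themselves within a genome. In plant seedlings most are kept silent by DNA methylation, by methylation of histone H3 at lysine 9, by the chromatin remodeller DDM1 and by small interfering RNAs that guide methylation. Histone deacetylation is part of this repression, and FVE, a WD40-repeat protein also known as MSI4, works together with histone deacetylase 6 (HDA6). The table gives elements by identifier only, in which the digit after AT is the chromosome and the number after TE follows the order along it. No annotation of element family, length, strand or position was used, so read counts were not compared per length between elements.

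Totals were 16161800 to 19599058 counts per fve-8 library and 16282013 to 17723538 per WT library. The libraries were not equal in depth for nuclear features, since nuclear genes held 58.1% to 65.1% of fve-8 counts and 52.1% to 53.3% of WT counts. Summed over libraries, the fve-8 to WT ratio was 1.02 for total counts, 1.18 for nuclear gene counts and 1.29 for library sizes scaled by TMM. TMM is a normalization by a trimmed mean of log ratios between libraries, which takes most features as unchanged. Leaf and photosynthesis genes (LHCB1.1, RBCS1A, CAB3) and root genes (CASP1, COBL9, TIP2;3) were present in every library. Levels are given as CPM, counts scaled to 1e6 of the TMM-scaled library size. Of the listed pollen genes, VGD1 had 0 counts in all 6 libraries. VEX1 had reads in every library, at 0.0529, 0.423 and 0.0614 CPM in fve-8 and 0.322, 0.257 and 0.275 CPM in WT. FVE transcript (AT2G19520) was present in the mutant at 6.61, 5.63 and 5.40 CPM, against 9.97, 8.67 and 9 CPM in WT.

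Most of the 1591 elements gave very few reads, and a small part gave many. A single read over the 3 fve-8 libraries put 898 elements (56.4%) in the set, and another 281 had 2. Reads numbered 3 to 4 for 220 elements and 5 to 9 for 125. At least 10 reads were counted for 67 elements, which is 4.21% of the set, and these held 43.4% of its 5310 fve-8 counts. The first 20 elements by reads held 29.9%, with ties at 23 reads broken by identifier, and the first 3 alone held 16.0%.

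The excess over the mirror set grew with the number of reads required. At 1 read or more the sets held 1591 and 898 elements, a ratio of 1.77. At 3 or more reads they held 412 and 103, and at 5 or more 192 and 25. At 10 or more reads there were 67 elements near silent in WT and 3 near silent in fve-8. At 20 or more reads there were 28 elements near silent in WT and 0 of the mirror set. The highest mirror element had 11 reads over the WT libraries, against 365 for the highest element of the set over the fve-8 libraries. Nuclear depth was also greater in fve-8. With TMM-scaled counts of at least 1 the sets held 849 and 883 elements, a ratio of 0.961. That cutoff is uneven between the genotypes. A single read scales to 0.921 and 0.737 in fve-8 replicates 1 and 2 and drops out, but to 1.12 to 1.2 in WT and stays. With TMM scaling of the ceiling alone, chosen after seeing the data, the sets held 1393 and 883 elements, a ratio of 1.58. That setting still takes any raw read as detection, at the greater nuclear depth of fve-8. Its ceiling shuts out 2 reads in a WT library but lets in 2 reads in fve-8 replicate 1 or 2. With TMM-scaled counts of at least 10 the sets held 39 and 3, and with at least 3, a limit added after seeing the data, 205 and 98. Without fve-8 replicate 2 the raw ratio at 1 read was 1.15.

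**Figure D1:**
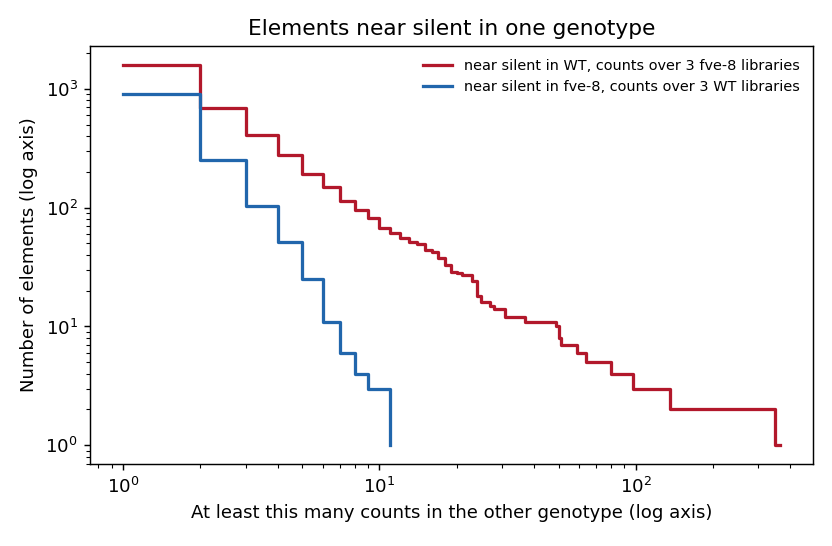
Number of elements with at least a given number of counts (both axes logarithmic), for elements near silent in WT, by their sum over 3 fve-8 libraries (red), and for elements near silent in fve-8, by their sum over 3 WT libraries (blue). The lines start at 1591 and 898 elements, and the blue line ends at 11 counts while the red one reaches 365.

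Elements with many fve-8 reads were found on both sides of the ceiling of 2 WT counts. Of the 1591 elements, 1011 had 0 WT counts, 382 had 1 and 198 had 2. At least 10 fve-8 reads were found for 23, 24 and 20 of these. Just inside the ceiling, with 2 WT counts, AT1TE56400 had 350 fve-8 counts, AT2TE11545 had 79 and AT3TE51460 had 50. Just outside it, with 3 WT counts, AT3TE63035 had 100, AT1TE74860 had 66 and AT3TE63130 had 38. In all 107 of the 124 elements with 3 WT counts had a fve-8 read and 21 of them at least 10.

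The same rule was applied to other feature classes. Nuclear genes gave 1736 near silent in WT and 1070 near silent in fve-8, with 66 and 8 at 10 or more reads. Non-coding loci gave 867 and 584, with 18 and 1 at that level. In raw counts the fve-8 side thus held more features in all 3 classes, with ratios at 1 read or more of 1.77 for elements, 1.62 for nuclear genes and 1.48 for non-coding loci. With TMM-scaled counts, computed for the other classes after seeing the data, these ratios were 0.961, 0.855 and 0.756. In all 3 classes the scaled cutoff of 1 drops single reads of fve-8 replicates 1 and 2 but keeps those of WT. At 10 or more scaled counts the sets held 39 and 3 elements, 21 and 11 nuclear genes, and 8 and 2 non-coding loci. Of the 30351 elements with at most 2 WT counts, 5.24% had a fve-8 read, against 25.9% of the 6713 such nuclear genes and 6.87% of the 12612 such non-coding loci.

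Each fve-8 library detected a different part of the set, yet the summed level was alike. Reads fell on 727, 820 and 794 elements of the set in fve-8 replicates 1 to 3, and on 275, 223 and 215 in WT replicates 1 to 3. The set summed to 91.5, 89.8 and 89.5 CPM in fve-8 and to 19.2, 16.0 and 15.8 CPM in WT. The mirror set summed to 8.93, 8.93 and 11.5 CPM in fve-8 and to 33.4, 28.2 and 27.5 CPM in WT. Both differences lie in the direction that the choice of elements fixes. In bulk seedlings, fewer cells transcribing an element and less RNA per cell cannot be told apart.

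Recurrence over libraries followed the number of reads, which bounds it. A count in all 3 fve-8 libraries was found for 197 elements (12.4% of the set), in 2 libraries for 356 and in only 1 for 1038 (65.2%). The mirror set had 38 elements (4.23%) with a count in all 3 WT libraries and 703 (78.3%) with a count in 1. Elements seen in a single fve-8 library were spread over the libraries, with 313, 367 and 358 in replicates 1 to 3, and their highest count was 5, for AT3TE48120 in fve-8 replicate 1. With at least 3 reads, a count in all 3 libraries was found for 47.8% of 412 elements near silent in WT and for 36.9% of 103 near silent in fve-8. Of the 67 elements with at least 10 reads, 64 had a count in all 3 fve-8 libraries and the other 3 in 2. Every fve-8 count was above every WT count for 120 elements of the set (7.54%), beside 25.8% of all features with a count and 10.2% of such elements. With the genotypes exchanged this held for 16 of the mirror set (1.78%), beside 1.53% of all features and 0.969% of elements. The rule used these counts, so nothing is read from the shares.

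Recurrence was also described with 1 library set aside at a time, within the same libraries that chose the set. Elements with at most 2 WT counts were sorted by their reads in 2 fve-8 libraries and then looked up in the other. With 0 reads in the 2 libraries, 1.08%, 1.26% and 1.23% had a count when replicate 1, 2 or 3 was left out. With 1 read these shares were 18.5%, 23.1% and 20.6%. With 10 or more reads they were 97.7% (42 of 43), 100% (38 of 38) and 96.1% (49 of 51). The exact 95% binomial intervals over elements were 87.7 to 99.9, 90.7 to 100 and 86.5 to 99.5. High shares in this class follow largely from the number of reads itself, and nothing is read from them.

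Sparse elements of the mirror set were also found again in a left-out library. Elements near silent in fve-8 with 1 read in 2 WT libraries had a count in the left-out WT library in 19.2%, 16.2% and 13.2% of cases. With 2 to 4 reads the shares were 42.5%, 39.6% and 32.9% in the mirror set and 43.5%, 50.4% and 47.4% in the set near silent in WT. No mirror element had 10 or more reads in 2 WT libraries, so that class has no counterpart. The binomial intervals take each element as a separate trial, although elements that share a transcript are not independent. They do not cover the spread between libraries.

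**Figure D2:**
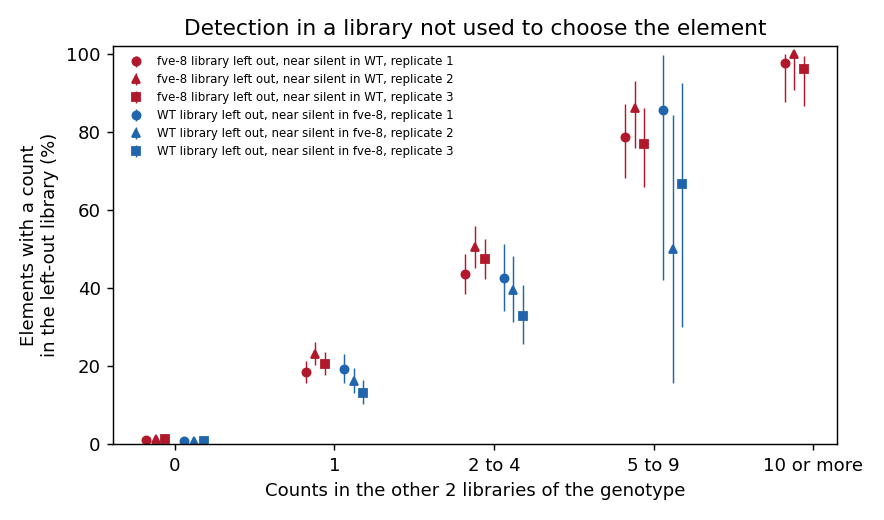
Share of elements with a count in a library that was not used to choose them (per cent), by their counts in the other 2 libraries of the same genotype, for elements near silent in WT (red, fve-8 libraries) and near silent in fve-8 (blue, WT libraries). Bars are exact 95% binomial intervals that take each element as a separate trial. The red points climb from about 1% at 0 counts to 96.1% or more at 10 or more counts, a class with no blue points.

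Well-covered and sparse elements differed in how fve-8 replicate 3 compared with the other fve-8 libraries. The 67 elements with at least 10 reads summed to 43.0, 42.7 and 29.6 CPM in fve-8 replicates 1 to 3, against 1.42, 1.54 and 1.24 CPM in WT. The 898 elements with a single fve-8 read summed to 14.2, 13.1 and 19.6 CPM in fve-8, against 7.65, 5.01 and 5.36 CPM in WT. Replicate 3 was thus the lowest fve-8 library for the first class and the highest for the second. Elements with 3 to 9 reads summed to 25.1, 25.1 and 29.3 CPM in fve-8, against 6.37, 6.94 and 5.84 CPM in WT. Across the whole table replicate 3 stood apart as well, since its chi-square divided by degrees of freedom was 37.5 and 43.6 against fve-8 replicates 1 and 2. The same measure was 17.3 between fve-8 replicates 1 and 2 and 2.68 to 4.10 between WT libraries.

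**Figure D3:**
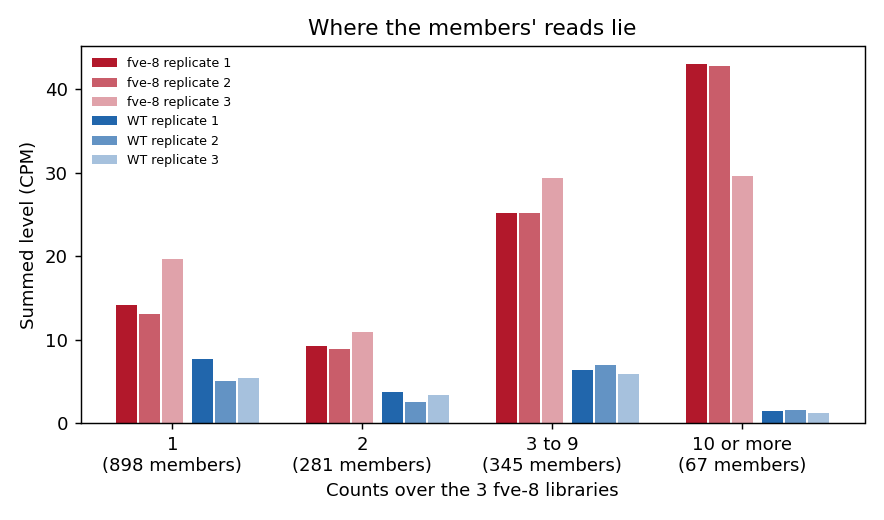
Summed level of the elements near silent in WT (CPM of the TMM-scaled library size) by their number of counts over the 3 fve-8 libraries, with 1 bar per library, fve-8 in red and WT in blue. The 67 elements with 10 or more counts stand at 29.6 to 43.0 CPM in fve-8 and 1.24 to 1.54 CPM in WT.

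A pair of elements led the set. AT3TE68730, on chromosome 3, had 76, 202 and 87 counts in fve-8 and 0 in each WT library, or 5.97 ± 2.33 CPM in fve-8 (SD, n = 3). With 3 counts over the WT group as the floor, it was at least 94.4-fold higher in fve-8. AT1TE56400, on chromosome 1, had 147, 147 and 56 counts in fve-8 and 0, 2 and 0 in WT. Its fve-8 to WT ratio was 136, with a 95% counting interval of 37.3 to 1126. The same counts chose these elements, so the floors, ratios and intervals here and below only describe those counts. The intervals leave out the spread between libraries. The lowest fve-8 library of either element lay far above its highest WT library, and in CPM replicate 2 was the top library for AT3TE68730 and replicate 1 for AT1TE56400.

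AT5TE37800 and AT2TE17305 followed, each with a single WT read. AT5TE37800 had 23, 68 and 44 counts in fve-8 and 0, 0 and 1 in WT, a ratio of 105 (95% counting interval 18.5 to 4169). AT2TE17305 had 39, 34 and 24 counts in fve-8 and 0, 0 and 1 in WT, a ratio of 75.3 (13.2 to 3004). The upper bounds are wide because 1 WT read fixes the denominator. AT5TE37800 was lowest in fve-8 replicate 1, whereas AT2TE17305 was highest there.

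A group of 3 elements gave reads mainly in fve-8 replicates 1 and 2. AT2TE11545 had 47, 27 and 5 counts in fve-8 and 1, 1 and 0 in WT. AT4TE09800 had 25, 33 and 5 in fve-8 and 0, 1 and 0 in WT. AT4TE54750 had 26, 27 and 5 in fve-8 and 0, 0 and 1 in WT. In CPM, replicate 3 stood at 0.169, 0.226 and 0.244 times the mean of replicates 1 and 2 for these elements, so the total of each rests on 2 libraries. The ratios to WT over all libraries were 30.7, 48.9 and 45.0, with lower bounds of 8.21, 8.46 and 7.77.

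Other elements showed a more even or an opposite pattern. AT3TE51460 had 19, 21 and 10 counts in fve-8 and 1, 1 and 0 in WT. AT1TE45855 had 13, 17 and 19 in fve-8 and 1, 0 and 1 in WT. AT3TE51650 had 13, 26 and 10 in fve-8 and 0 in every WT library, at least 12.7-fold higher in fve-8. AT1TE45855 was the element among these with its highest level in replicate 3, at 1.66 times the mean of the other fve-8 libraries.

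AT4TE09780, 3 places from AT4TE09800 in the order on chromosome 4, had 22, 17 and 9 counts in fve-8 and 1, 0 and 0 in WT. AT1TE52950 had 14, 13 and 9 in fve-8 and 0, 1 and 0 in WT. Both exceeded every WT library in every fve-8 library. AT5TE43075 had 12, 12 and 6 counts in fve-8 and 0 in WT, and AT1TE48035 had 12, 9 and 5 in fve-8 and 0 in WT. AT4TE21670 had 6, 9 and 9 in fve-8 and 0 in WT. With 0 WT reads these 3 stood at least 7.76-fold, 6.73-fold and 6.21-fold higher in fve-8. The remaining elements among the first 20, AT5TE43385, AT1TE45380, AT1TE44450, AT1TE43585 and AT1TE53090, had sums of 23 to 30 fve-8 counts and 1 or 2 WT counts.

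For each of these 20 elements every fve-8 library had more counts than every WT library, beside the 25.8% of all features with a count, and the choice of elements for high fve-8 sums favours this. In CPM, fve-8 replicate 1 was the highest library for 13 of them, replicate 2 for 5 and replicate 3 for 2. The level in replicate 3 was below the mean of replicates 1 and 2 for 17 of 20, with a median ratio of 0.625 and a range from 0.169 to 1.66. Over the 67 elements with at least 10 reads this median was 0.611, and 20 elements were above 1, up to 3.77 for AT3TE59605 (4, 5 and 13 fve-8 counts). In the mirror set the elements with most WT reads were AT5TE42900 (0, 1 and 1 in fve-8, 3, 4 and 4 in WT), AT2TE17195 (0, 0 and 1 in fve-8, 4, 2 and 4 in WT) and AT3TE62370 (0, 1 and 1 in fve-8, 4, 3 and 3 in WT). AT3TE60705 and AT1TE42380 came next with 8 and 7 WT reads.

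**Figure D4:**
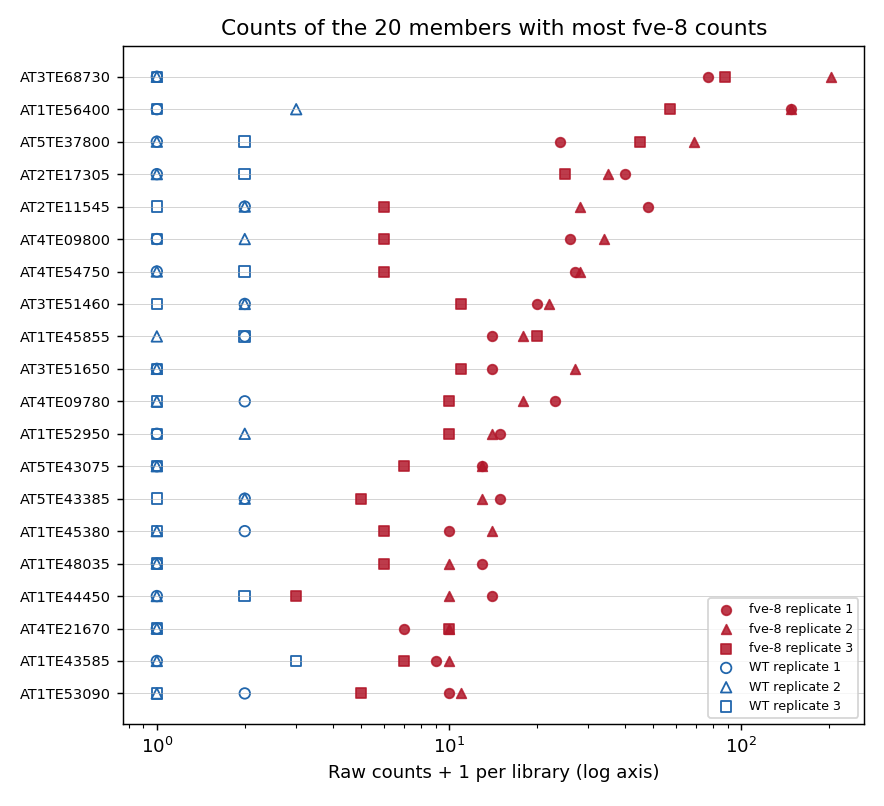
Raw counts plus 1 in each library (log axis) for the 20 elements with most fve-8 counts, fve-8 libraries as filled red symbols and WT libraries as open blue ones. All fve-8 symbols lie to the right of all WT symbols in each row, and the squares of fve-8 replicate 3 lie left of the other fve-8 symbols in most rows.

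The count of tests that could be run on the set was small. edgeR's quasi-likelihood test on the whole table kept 19543 features after the filter on low counts, 297 of them elements, and 7 of the 1591 elements near silent in WT were among these. All 7 were called higher in fve-8 at an adjusted p under 0.05, beside 6.60% of all tested features and 26.9% of tested elements. The rule used this contrast, and elements with at most 2 WT counts pass the filter only through their fve-8 counts, so nothing is read from that share. Fitted log2 fold changes ranged from 4.06 to 9.72 and depend on the prior count at such low WT levels. Of the 80 elements called higher in the table, 73 had more than 2 WT counts. DESeq2 called 17 of the set higher, beside 5.62% of all features with an adjusted p. Without the count filter edgeR called 40 higher, beside 6.08% of all features with a count. Without fve-8 replicate 3, edgeR called 14 higher, beside 12.3% of all tested features. The authors' deposited table gives an adjusted p to 14 elements of the set, of which 13 are below 0.05, all with a positive log2 fold change, beside 5.74% of all features with an adjusted p in the authors' deposited table.

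Position along the chromosomes was not part of the rule. By chromosome the set followed the table: 22.3%, 20.4%, 20.4%, 14.7% and 22.2% of it lay on chromosomes 1 to 5, against 22.9%, 19.1%, 20.7%, 15.9% and 21.4% of all elements. The 67 elements with at least 10 reads numbered 12, 10, 16, 13 and 16 on chromosomes 1 to 5. All 5 chromosomes therefore carried both sparse and well-covered elements.

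Order within a chromosome showed more structure. Elements of each chromosome were ranked by identifier and cut into 10 bins of equal numbers of elements, so that each bin held 10.0% of all elements. The 67 well-covered elements were most frequent in bin 4, with 21 (31.3%), and 44 (65.7%) lay in bins 3 to 6, which hold 40.0% of all elements. Of the whole set 41.8% lay in bins 3 to 6, and of the mirror set 33.0%. The outermost bins, 1 and 10, held 6 of the 67 (8.96%), 22.1% of the set and 26.6% of the mirror set. Bin 10 held 0 of the 67 elements.

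Chromosomes differed in this pattern. On chromosome 1 all 12 well-covered elements lay between 32.7% and 62.8% of the order, from AT1TE43585 to AT1TE56400. On chromosome 2 all 10 lay between 22.1% and 59.5%. On chromosome 5, 13 of 16 lay in bins 3 to 6, 8 of them in bin 4. On chromosome 4, in contrast, 9 of 13 lay in bins 1 and 2 and only 2 in bins 3 to 6. The other 2 of chromosome 4 lay in its far part, up to 88.7%. On chromosome 3 the 16 lay between 9.68% and 85.5%, with AT3TE68730, the element with most reads, at the far end. No test was made of these shares, since neighbouring elements can share a transcript.

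**Figure D5:**
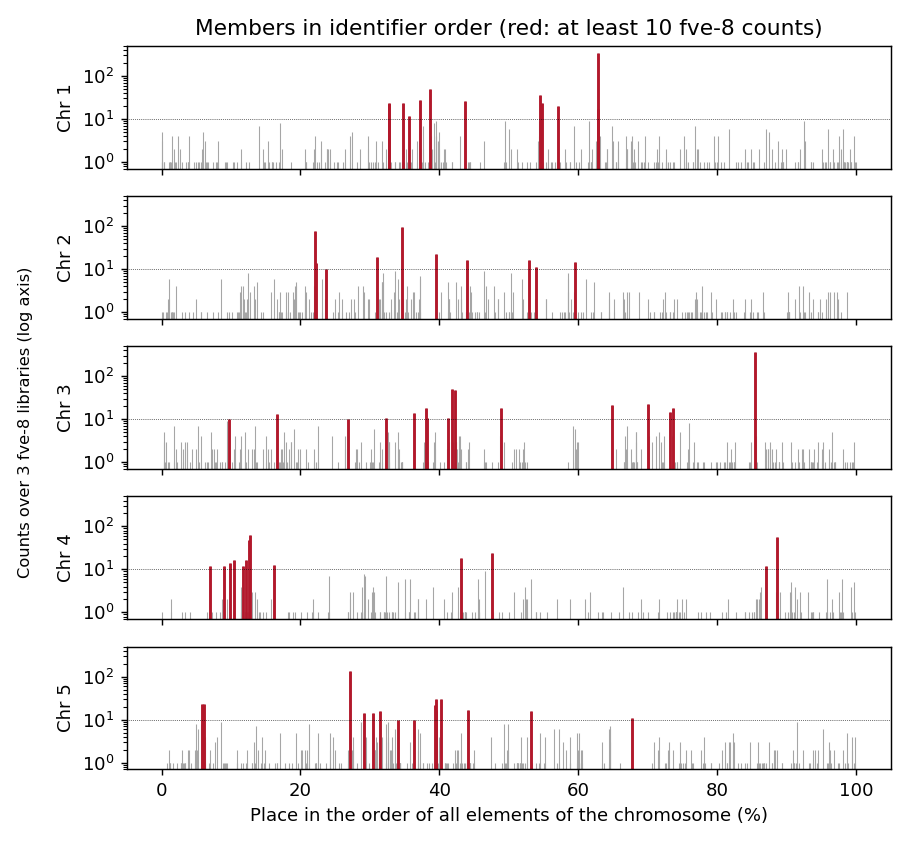
Each element near silent in WT at its place in the identifier order of its chromosome (x axis, per cent of all elements of that chromosome), with its counts over 3 fve-8 libraries as height (log axis). Red lines are the 67 elements with at least 10 counts, which lie between 32.7% and 62.8% on chromosome 1 and mostly before 20% on chromosome 4.

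Identifier numbers run in steps of 5 where elements follow each other without a gap in numbering. Both neighbours were 5 away for 52 of the 67 well-covered elements (77.6%), against 61.1% of all elements. For the 898 elements with a single fve-8 read the share was 53.5%, and for the mirror set 48.4%. The distance in bases behind such a step is not known here.

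Many elements of the set lay side by side. At least 1 neighbour in the order also belonged to the set for 271 of 1591 (17.0%), compared with 9.82% of all elements. These 271 formed 127 runs of consecutive elements, 114 of 2, 9 of 3 and 4 of 4. In the mirror set 100 of 898 elements (11.1%) had a neighbour of the mirror set, compared with 5.59% of all elements, and formed 48 runs, the longest of 3. A neighbour with more than 2 WT counts was found for 16.4% of the 67 well-covered elements, 10.7% of the set, 9.35% of the mirror set and 5.16% of all elements. These shares were above that of the table as a whole. Whether reads from a neighbouring element add to the counts was not tested.

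The 4 runs of 4 differed in their reads. AT2TE11540 to AT2TE11555 had 54, 36 and 7 counts in fve-8 and 2, 1 and 0 in WT, of which AT2TE11545 gave most and AT2TE11555 gave 5, 7 and 2 in fve-8. AT1TE45375 to AT1TE45390 had 13, 18 and 9 in fve-8 and 1, 1 and 0 in WT, led by AT1TE45380 with 9, 13 and 5 in fve-8. The other elements of these runs had few reads. The remaining runs were sparse throughout. AT1TE46385 to AT1TE46400 had 6, 3 and 0 in fve-8 and 2, 1 and 0 in WT, and AT1TE00150 to AT1TE00470, at the start of chromosome 1, had 2, 5 and 3 in fve-8 and 0, 4 and 1 in WT.

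Well-covered elements lay beside silent elements and beside other elements of the set. All neighbours had 0 fve-8 counts for 42 of the 67 (62.7%), 74.0% of the set and 85.6% of all elements. A neighbour that belonged to the set was found for 25.4% of the 67. Of the 40 neighbours of the first 20 elements, 31 had 0 fve-8 counts, 9 belonged to the set and 0 had more than 2 WT counts. For 13 of the 20 both neighbours had 0 fve-8 counts, as for AT1TE56400, AT5TE37800, AT2TE17305 and AT4TE09800. AT5TE43075 was an exception, since 4 well-covered elements from AT5TE43045 to AT5TE43075 lay within 7 consecutive places and had 79 fve-8 counts together. Pairs within 4 consecutive places were AT1TE56390 with AT1TE56400 (367 fve-8 counts together), AT4TE09780 with AT4TE09800 (111), AT2TE11545 with AT2TE11555 (93) and AT1TE43585 with AT1TE43605 (45). In all, 14 of the 67 lay within 10 places of another of the 67, in 6 groups. Near-identical copies can divide reads among themselves, and no source used here gives the counting mode for such reads.

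The list of genes that act on element silencing held mostly genes without a called difference, and includes the demethylases DME and ROS1, which act against it. Of 32 listed genes 30 carried the listed symbol in the reference and 29 were tested. With edgeR 1 was called higher and 1 lower, beside 6.60% and 5.07% of all tested features, and the median log2 fold change was -0.06, against -0.01 over all features. The gene called lower was FVE itself (log2 fold change -0.65 ± 0.14, SE, adjusted p = 0.0184). The gene called higher was DME (AT5G04560), a DNA glycosylase that removes methylated cytosine, at 35.4 ± 6.81 CPM in fve-8 and 23.8 ± 3.93 CPM in WT (SD, n = 3, log2 fold change 0.58 ± 0.16, adjusted p = 0.0466).

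Neither call held in every fit without 1 library. In those fits the log2 fold change stayed at -0.74 to -0.58 for FVE and at 0.47 to 0.74 for DME. DESeq2 called both with all libraries (adjusted p of 0.0212 and 0.0192). With the replicate number as a block in edgeR, FVE was still called (adjusted p = 0.0371). Leaving out any WT library ended the call of FVE (edgeR adjusted p of 0.104, 0.0725 and 0.0618 without replicates 1, 2 and 3), as did leaving out fve-8 replicate 2 (0.0719). Leaving out any WT library also ended the call of DME (0.197, 0.196 and 0.0570), as did leaving out fve-8 replicate 1 (0.0896) or 2 (0.144). With the replicate number as a block DME was not called either (0.57, adjusted p = 0.0993). Without fve-8 replicate 3, edgeR also called SUVH2 lower (-0.43, adjusted p = 0.0489) and ATXR5 higher (0.80, adjusted p = 0.0327). In that fit 12.3% of all tested features were called higher. Without fve-8 replicate 1, edgeR called SUVH9 lower (-0.46, adjusted p = 0.0411). The shares of all features called lower in these fits are not given here, so nothing is read from the extra calls. SUVH2 and SUVH9 are needed to recruit RNA polymerase V to methylated DNA, and ATXR5 methylates histone H3 at lysine 27.

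HDA6 (AT5G63110) stood at 16.4, 20.1 and 19.4 CPM in fve-8 and 15.6, 15.7 and 15.5 CPM in WT (log2 fold change 0.26 ± 0.11, SE, edgeR adjusted p = 0.162). The remodeller gene DDM1 (AT5G66750) stood at 9.83, 9.01 and 6.69 CPM in fve-8 and 8.36, 7.51 and 6.94 CPM in WT. MET1 (AT5G49160), which maintains CG methylation, stood at 35.4, 28.7 and 26.8 CPM in fve-8 and 36.7, 32.6 and 34.1 CPM in WT. None of these 3 was called, and the genotypes overlapped for DDM1 and MET1.

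Some Arabidopsis elements are known to be transcribed under heat stress, and heat genes differed between the fve-8 libraries. Of 4 tested heat genes 2 were called higher, beside 6.60% of all tested features. These were HSP17.6II (1.96, 8.89 and 4.91 CPM in fve-8, 0.515, 0.578 and 0.549 CPM in WT, log2 fold change 3.27 ± 0.56, edgeR adjusted p = 0.00846) and HSP90.1 (1.40 ± 0.30, adjusted p = 0.0187). HSP101 (0.36 ± 0.28, adjusted p = 0.436) and HSP70 (1.02 ± 0.39, adjusted p = 0.122) were not called. HSP70 stood at 16.2, 67.3 and 54.4 CPM in fve-8 and 21.8, 21.7 and 24.7 CPM in WT. HSFA2, also listed, was too low to be tested, at 0, 0.0423 and 0.184 CPM in fve-8 and 0.0643, 0 and 0 CPM in WT. The 5 listed genes summed to 28.4 to 99.5 CPM in fve-8 and 28.6 to 34.3 CPM in WT. The 4 residual seed genes were all called lower, with sums of 9.46 to 16.9 CPM in fve-8 and 57.6 to 99.7 CPM in WT. The 3 root genes and 1 of 3 leaf genes (LHCB1.1) were also called lower, beside 5.07% of all tested features. The part of these differences in the element counts was not tested.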

How the data were processed

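RNA was analysed from 3 fve-8 and 3 WT libraries. The small RNA libraries were not used here, since their table holds miRNA entries only. The authors deposited raw read counts per feature, not normalized. Per the submitters' processing notes they used TopHat2, SAMtools, HTSeq and edgeR; no source used here gives versions, genome build or counting mode. The deposited log2 fold changes and adjusted p-values, under the column names of a DESeq2 output per the file headers, were used only where the authors' deposited table is named. The 6 columns of the authors' normalized values per library were not used.

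The members and gene lists were chosen with earlier results of these data known. The text names the 20 members and 5 mirror elements with most counts, the longest runs, the elements nearest the ceiling, and called silencing genes with FVE and HDA6. The whole table was fitted with edgeR 4.0.16 in R 4.3.3, with DESeq2 1.42.0 as an alternative. The edgeR fit used filterByExpr, TMM and the quasi-likelihood test, with genotype as the only term. Benjamini-Hochberg adjustment ran over all tested features, and a call required an adjusted p under 0.05. A check of the edgeR fit on simulated counts placed changes only in features with many counts. It does not bear on sparse elements. CPM uses TMM-scaled sizes. A floor of 3 counts is 0.127 to 0.184 CPM in fve-8 and 0.193 to 0.206 CPM in WT libraries. Ratios carry exact 95% intervals (SciPy 1.17.1), which cover counting error only. They make no allowance for the choice of elements on the same counts.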

Additional observations from a re-analysis of the deposited data

How the results depend on the processing

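With a ceiling of 0 counts the set and the mirror set held 1011 and 487 elements, 23 and 0 of them with at least 10 reads and 73 and 11 with a read in all libraries. With a ceiling of 5 they held 1840 and 1148, with 131 and 10 at 10 reads and 316 and 92 in all libraries. Requiring at least 3 reads gave 412 and 103. With library totals the sets held 1191 and 415. In that setting 1 read in WT replicates 1 and 2 and in fve-8 replicate 2, whose totals exceed the mean, falls below the minimum of 1. With TMM sizes the sets held 849 and 883, where the excess was gone. There 1 read in fve-8 replicates 1 and 2 scales to 0.921 and 0.737, below the minimum of 1, and 2 WT reads scale above the ceiling, so most single-read elements dropped out by construction; 39 and 3 had at least 10. Chosen after seeing the data, TMM scaling of the ceiling alone, with any raw read as detection, gave 1393 and 883. TMM scaling with at least 3 reads, also chosen then, gave 205 and 98.

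Without 1 library at a time the set held 1224 to 1752 elements and the mirror set 621 to 1060, with a ratio of 1.15 to 1.24 without a fve-8 library and 2.47 to 2.82 without a WT library. Elements with at least 10 reads numbered 38 to 108 against 0 to 9, and those with a read in all remaining libraries 236 to 336 against 61 to 107. With 1 library fewer, the ceiling of 2 counts is also easier to stay under.

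edgeR calls in the set, 7 with all libraries, numbered 7 to 14 without 1 library, 40 without the count filter and 17 with DESeq2; the choice of elements favours all of them. All elements called higher numbered 80, with 48 to 121 without 1 library and 146 without the filter. Silencing genes called numbered 2, and 0 to 4 without 1 library. Of all features in each fit, 6.60% were called higher with all libraries and 12.3% without fve-8 replicate 3. The share was 6.08% without the count filter and 5.62% with DESeq2. For the other settings it is not given here, so nothing is read from changes in the counts of calls. With the replicate block the set, all elements and silencing genes had 7, 76 and 1 calls, as DME was lost (0.57, edgeR adjusted p = 0.0993). The labels do not say that numbers pair libraries, and deviations of same-numbered libraries correlated at -0.03, -0.08 and -0.19.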
